A study of Homo sapiens with 10 samples.

Results

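The 10 genes described here encode transcription factors of epithelial-mesenchymal transition (EMT), and they were taken by name from the 58302 genes listed in each table of an RNA-Seq study of PSPC1 and the tyrosine kinase PTK6 in human hepatocellular carcinoma lines. They are SNAI1, SNAI2 and SNAI3 of the Snail family, the basic helix-loop-helix factors TWIST1, TWIST2 and TCF4, the zinc-finger homeodomain factors ZEB1 and ZEB2, the homeobox factor PRRX1 and the forkhead factor FOXC2. All 10 symbols matched 1 gene each. TCF4 is the gene of the E protein E2-2 (ENSG00000196628) and not TCF7L2, the Wnt effector that is often called by the same name.

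The 10 libraries came from 3 lines, with 1 library per condition. The study treats SK-Hep1 cells as deficient in the paraspeckle protein PSPC1. They served as a mock control or carried PSPC1, PSPC1 with PTK6, the tyrosine mutant PSPC1-Y523F, or PSPC1-Y523F with PTK6. Mahlavu cells served as a mock control or carried the C-terminal PSPC1 fragment PSPC1-CT131 or Mut-NLS-CT131, whose nuclear localization sequence is mutated. What the mock controls carried is not given for these libraries in the sources used here. Huh-7 cells were left untreated or were given HGF, the ligand of the receptor MET, at 10 ng/ml for 48 h. The overexpression constructs were plasmid-borne, and whether each library came from 1 clone or a pool is not given in the sources used here. Because no condition had a second library, no difference between 2 conditions carries a p-value, and p-values are given only for the comparison of lines and for PTK6 pooled over both PSPC1 forms.

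EMT is the program by which epithelial cells give up cell-cell junctions and gain a migratory, mesenchymal form. Snail, ZEB and Twist factors bind E-box sequences, and Snail and ZEB factors recruit co-repressors to silence junction genes such as CDH1, which encodes E-cadherin. TWIST1 and TWIST2 act as dimers with E proteins such as TCF4, and ID proteins hold E proteins in dimers that cannot bind DNA. In liver carcinoma these factors are studied in the context of invasion and loss of hepatocyte features.

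SK-Hep1 and Mahlavu libraries lacked most hepatocyte transcripts. Of 10 hepatocyte markers, 9 were below 1 FPKM in every SK-Hep1 and every Mahlavu library, the exception being SERPINA1, whereas all 10 were above 1 FPKM in Huh-7. Of 8 endothelial markers, none reached 1 FPKM in SK-Hep1 or Mahlavu, where their summed levels were 0.636 to 1.16 FPKM and 1.22 to 1.44 FPKM. The 8 SK-Hep1 and Mahlavu libraries held 19085682 to 24278662 reads on genes, and the Huh-7 libraries, deposited as FPKM alone, held 15245935 to 16374128 recovered reads. FPKM is the number of reads scaled for gene length and library size, so levels of different genes can be set side by side. PSPC1 was at 0 reads in SK-Hep1 mock, at 7.01 FPKM with PSPC1 and 2.28 FPKM with PSPC1-Y523F, and at 26.4 and 70.9 FPKM in the libraries where PTK6 was added to each form. PTK6 itself was at 4.79, 5.69 and 4.09 FPKM in mock, PSPC1 and PSPC1-Y523F, and at 16.7 and 10.5 FPKM in the PSPC1/PTK6 and PSPC1-Y523F/PTK6 transfectants. Added PTK6 and a higher PSPC1 level therefore cannot be told apart in these libraries. In Mahlavu, PSPC1 was at 47.3 FPKM in mock, 30.8 with PSPC1-CT131 and 22.5 with Mut-NLS-CT131, so it was not higher with the fragments. The PSPC1 level therefore does not show that the fragments were expressed. PTK6 was lowest in Mahlavu mock, at 8.95 FPKM, and reached 17.3 FPKM in that line.

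The DNA letters that Snail and ZEB factors read are shown here because the epithelial genes followed as their targets below were listed from general knowledge of such sites. The E-box CACCTG reads as CAGGTG on the other strand, so both spellings are 1 motif. In RefSeq promoters of GRCh38.p14, this motif stood in the 250 bases before the start of 6143 of 35116 promoters (17.5%). It stood in 17 of 29 promoters (58.6%) of the 20 epithelial targets that have one in the table, out of 30 listed, and in 4 of 23 promoters (17.4%) of mesenchymal genes on the list used below. Among the EMT factors, ZEB1, ZEB2, TWIST2, TCF4 and PRRX1 had promoters in the table, 20 in all, and the motif stood in 2 of them, both of ZEB1. The epithelial list was drawn up from general knowledge of such sites, so its higher share is partly set by that choice. These matches describe letters and not binding. The sites of CRB3, a polarity protein of tight junctions, of the epithelial sorting adaptor AP1M2, of the desmosomal protein DSP and of ZEB1 are printed 5′ to 3′ on the strand of the gene, 10 bases to each side, with the E-box in capitals. A further ZEB1 box, 242 bases before the start of the second of its promoters with boxes, is not printed because its flank leaves the window.
CRB3, chr19:6464033-6464058, plus strand: gctcgcaatgCAGGTGtaaggtcccc
CRB3, chr19:6464053-6464078, plus strand: gtccccctcaCACCTGcgcgcttccg
CRB3, chr19:6464114-6464139, plus strand: ggtcccgttaCAGGTGcgcccacagc
CRB3, chr19:6464172-6464197, plus strand: cagcgaggctCAGGTGcacaagccgg
CRB3, chr19:6464201-6464226, plus strand: tgcgctctccCAGGTGagtgactaaa
AP1M2, chr19:10587354-10587379, minus strand: cagcgctgctCACCTGgccgcctccc
AP1M2, chr19:10587324-10587349, minus strand: aagacgcacaCACCTGggctctcacc
AP1M2, chr19:10587312-10587337, minus strand: cctgggctctCACCTGggcgcaggcg
DSP, chr6:7541483-7541508, plus strand: gcggcgggcgCAGGTGgggaggggcg
DSP, chr6:7541576-7541601, plus strand: agaaaccggcCAGGTGtggcctaggc
ZEB1, chr10:31318350-31318375, plus strand: gaggtgacagCAGGTGagggccgggt
ZEB1, chr10:31319121-31319146, plus strand: tgtcgtaaacCAGGTGcggtggggag

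The epithelial genes printed here did not share 1 pattern of levels. CRB3, with 5 boxes, had 0 to 9 reads in the SK-Hep1 libraries and 0 to 7 in the Mahlavu libraries, but 17.6 and 17.5 FPKM in untreated and HGF-treated Huh-7. AP1M2, with 3 boxes, was at 86.3 to 155 FPKM in SK-Hep1, at 67.8 to 76.1 FPKM in Mahlavu and at 88.1 and 82.1 FPKM in Huh-7. DSP, with 2 boxes, had 104 reads in SK-Hep1 mock and 0 or 1 read in each of the 4 other SK-Hep1 libraries, against 5.69 to 10.7 FPKM in Mahlavu and 34.5 and 39.6 FPKM in Huh-7.

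The Snail family divided the lines. SNAI1 (ENSG00000124216, chromosome 20, 49982999 to 49988886, plus strand), the Snail repressor of CDH1, had 1, 2, 2, 0 and 1 reads in SK-Hep1, in the order mock, PSPC1, PSPC1/PTK6, PSPC1-Y523F alone, and the mutant with PTK6. Values of the 5 SK-Hep1 libraries keep this order below. It was at 8.29, 12.5 and 17.2 FPKM in Mahlavu mock, PSPC1-CT131 and Mut-NLS-CT131, from 317, 419 and 555 reads, and at 14.0 and 14.2 FPKM in untreated and HGF-treated Huh-7. Thus SNAI1 was close to absent in SK-Hep1, and no SK-Hep1 library reached the level that 3 reads would give. SNAI2 (ENSG00000019549), the paralog Slug, was at 16.3 FPKM in SK-Hep1 mock, at 3.53 with PSPC1, at 5.85 with PSPC1/PTK6, at 13.7 with PSPC1-Y523F and at 13.0 with PSPC1-Y523F/PTK6. In Mahlavu it was at 5.95, 6.21 and 5.76 FPKM in mock, PSPC1-CT131 and Mut-NLS-CT131, and in Huh-7 it rested on 5 and 11 reads. SNAI2 was therefore the Snail gene of SK-Hep1, Mahlavu held SNAI1 and SNAI2 together, and Huh-7 held SNAI1. SNAI3 (ENSG00000185669, chromosome 16, 88677682 to 88686493, minus strand), the least studied of the 3, was at 0.024 to 0.200 FPKM in SK-Hep1, at 0.993, 0.729 and 1.18 FPKM in Mahlavu mock, PSPC1-CT131 and Mut-NLS-CT131, and at 1.38 and 1.33 FPKM in Huh-7. It was the lowest Snail gene of Mahlavu, and only its Mut-NLS-CT131 library and the Huh-7 libraries exceeded 1 FPKM.

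TWIST1 was the most abundant member per length in every SK-Hep1 and Mahlavu library. TWIST1 (ENSG00000122691, chromosome 7, 19020991 to 19117672, minus strand) was at 21.2 FPKM in SK-Hep1 mock, 38.7 with PSPC1, 29.3 with PSPC1/PTK6, 29.3 with PSPC1-Y523F and 26.2 with PSPC1-Y523F/PTK6. Its Mahlavu levels were 85.4, 80.2 and 103.6 FPKM in mock, PSPC1-CT131 and Mut-NLS-CT131. It had 0 reads in both Huh-7 libraries, where 3 reads would give 0.198 and 0.212 FPKM. TWIST2 (ENSG00000233608, chromosome 2, 238848032 to 238910543, plus strand), its close paralog, followed the same order of lines at lower levels. It was at 5.61, 5.94, 9.12, 5.62 and 7.57 FPKM in the SK-Hep1 libraries, at 12.3, 20.7 and 11.1 FPKM in Mahlavu mock, PSPC1-CT131 and Mut-NLS-CT131, and at 0 reads in Huh-7, where 3 reads would give 0.142 and 0.153 FPKM. TCF4 (chromosome 18, 55222331 to 55664787, minus strand), the E protein on the list, was highest in Huh-7, where TWIST1 and TWIST2 had no reads. It was at 0.445, 0.931, 0.771, 0.685 and 2.15 FPKM in the SK-Hep1 libraries in the same order, at 3.67, 1.5 and 2.62 FPKM in the Mahlavu libraries, and at 18.5 and 16.9 FPKM in Huh-7, where it was the highest of the 10 members.

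The ZEB pair was present wherever TWIST1 was, but ZEB1 alone was also present in Huh-7. ZEB1 (ENSG00000148516, chromosome 10, 31318495 to 31529814, plus strand) was at 7.01 FPKM in SK-Hep1 mock, 3.79 with PSPC1, 6.77 with PSPC1/PTK6, 2.92 with PSPC1-Y523F and 5.54 with PSPC1-Y523F/PTK6. It was at 16.0, 11.3 and 24.4 FPKM in Mahlavu mock, PSPC1-CT131 and Mut-NLS-CT131, and at 6.72 and 7.98 FPKM in untreated and HGF-treated Huh-7. The Huh-7 levels lay inside or just above the SK-Hep1 range. ZEB2 (ENSG00000169554, chromosome 2, 144364364 to 144524583, minus strand) was at 4.41, 4.64, 7.63, 3.03 and 5.56 FPKM in the SK-Hep1 libraries. It was at 11.5, 9.45 and 14.4 FPKM in Mahlavu mock, PSPC1-CT131 and Mut-NLS-CT131, and at 4 reads and 0 reads in Huh-7.

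PRRX1 and FOXC2 were at the edge of detection. PRRX1 (ENSG00000116132, chromosome 1, 170662728 to 170739419, plus strand), a factor of migrating mesenchyme, had 1 read over the 5 SK-Hep1 libraries, in the PSPC1-Y523F/PTK6 transfectant, and 12, 3 and 35 reads in Mahlavu mock, PSPC1-CT131 and Mut-NLS-CT131. Huh-7 had 8 and 9 reads. FOXC2 (ENSG00000176692, chromosome 16, 86567251 to 86569728, plus strand), a forkhead factor of mesoderm and vessels, had 10, 0, 2, 1 and 8 reads in the SK-Hep1 libraries from mock to PSPC1-Y523F/PTK6, and 0 reads in each of the 3 Mahlavu libraries, where 3 reads would give 0.053 to 0.063 FPKM. Its Huh-7 libraries had 2 and 0 reads. Positions are those of the deposited tables, whose coordinates are the GRCh38 ones of GENCODE 29 for 97.5% of genes and for 8 of these 10. Reads carry no molecular identifiers, so every interval and floor given here covers counting error only.

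**Figure D1:**
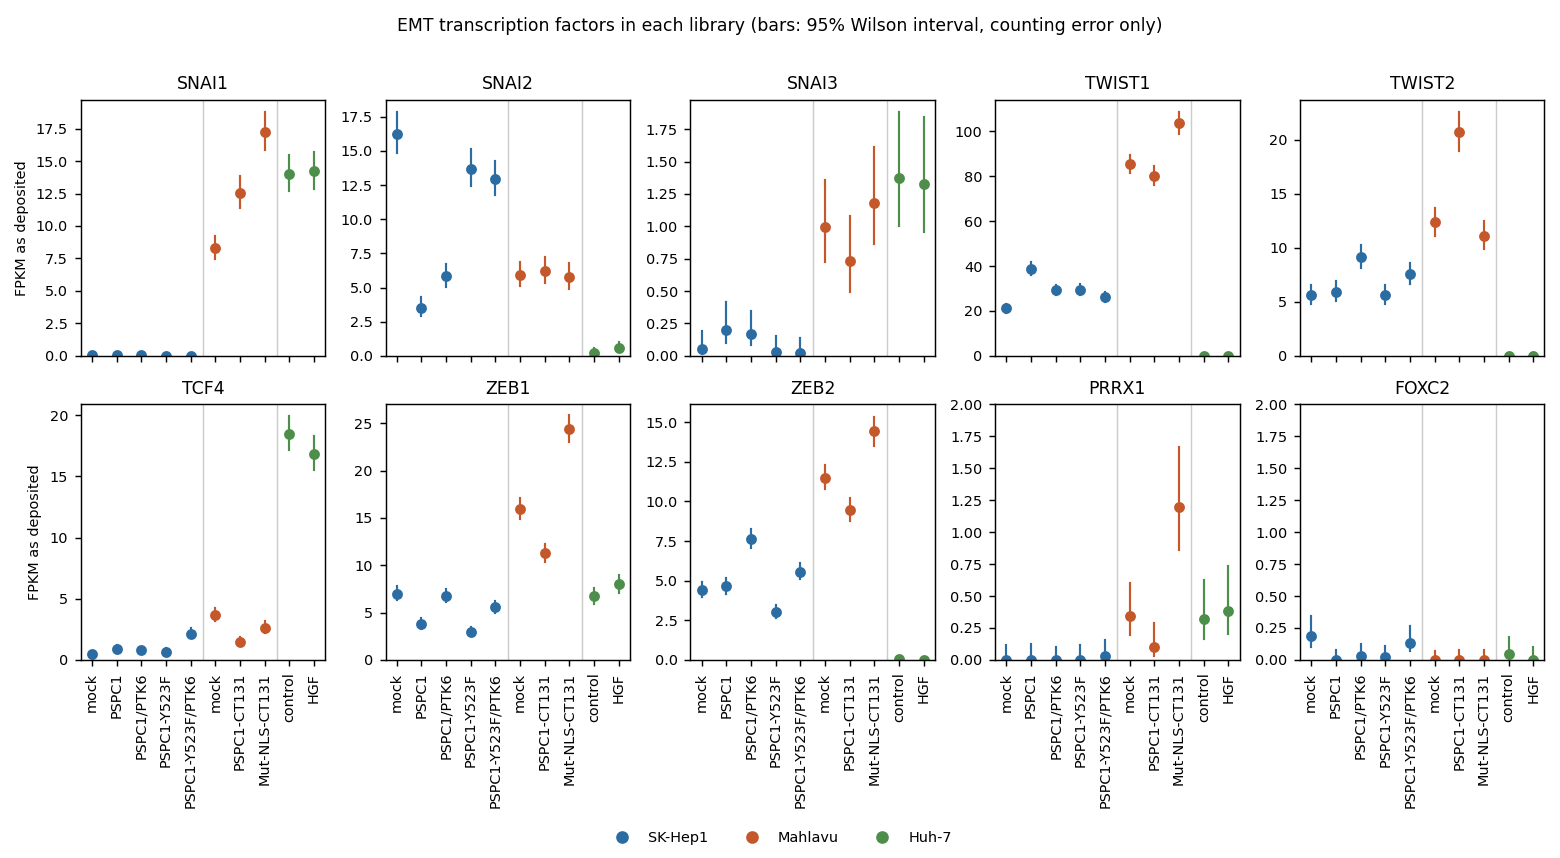
Level of each of the 10 EMT transcription factors in FPKM as deposited (vertical axis, linear, its own range per gene) in each of the 10 libraries (horizontal axis), coloured by line, with bars for the 95% Wilson interval of counting error. SNAI1 lies near 0 in the 5 SK-Hep1 libraries and at 8.29 to 17.2 FPKM in Mahlavu, and TWIST1 and TWIST2 lie at 0 in Huh-7.

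To set the lines against each other beyond the spread among their libraries, the 3 Mahlavu libraries were compared with the 5 SK-Hep1 libraries by edgeR's quasi-likelihood test on read counts, with Benjamini-Hochberg adjustment over 15229 genes. The libraries of a line are different transfectants, so the spread holds the effects of the constructs. In this test 27.8% of genes were higher in Mahlavu and 23.9% higher in SK-Hep1, so a difference between these lines is common. SNAI1 was higher in Mahlavu by 8.25 on the log2 scale (SE 0.495, adjusted p = 3.894e-07), a size that rests on 6 reads over the 5 SK-Hep1 libraries. SNAI3 was higher by 3.06 (SE 0.584, adjusted p = 0.001303). SNAI1 and SNAI3 entered the test only through their Mahlavu reads, so that they differed is partly set by the filter. ZEB1 was higher in Mahlavu by 1.45 (SE 0.310, edgeR adjusted p = 0.00258) and TWIST1 by 1.35 (SE 0.214, edgeR adjusted p = 0.000375).

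The remaining differences between lines were smaller or turned on single libraries. ZEB2 was higher in Mahlavu by 0.95 (SE 0.258, edgeR adjusted p = 0.0097), but without Mahlavu Mut-NLS-CT131 the difference was 0.77 with an adjusted p of 0.0522. TWIST2 was higher by 0.87 (SE 0.285, edgeR adjusted p = 0.024), and without Mahlavu PSPC1-CT131 the difference was 0.38 with an adjusted p of 0.234. It also missed the threshold without SK-Hep1 mock (adjusted p = 0.0513) and without SK-Hep1 PSPC1 (adjusted p = 0.0525). TCF4 differed by 1.03 (SE 0.504, edgeR adjusted p = 0.107), and by 1.59 with an adjusted p of 0.00755 once the SK-Hep1 PSPC1-Y523F/PTK6 library was left out. SNAI2 was the 1 tested member with a negative difference, at -1.10 (SE 0.464, edgeR adjusted p = 0.0679). Without the SK-Hep1 PSPC1 library its difference was -1.32 (edgeR adjusted p = 0.015), and without SK-Hep1 PSPC1/PTK6 it was -1.27 (edgeR adjusted p = 0.0282). PRRX1 and FOXC2 did not pass the filter, but without Mahlavu PSPC1-CT131, its library with 3 reads, PRRX1 entered the test through the other Mahlavu libraries alone, at a difference of 5.99 that is partly set by the filter.

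**Figure D2:**
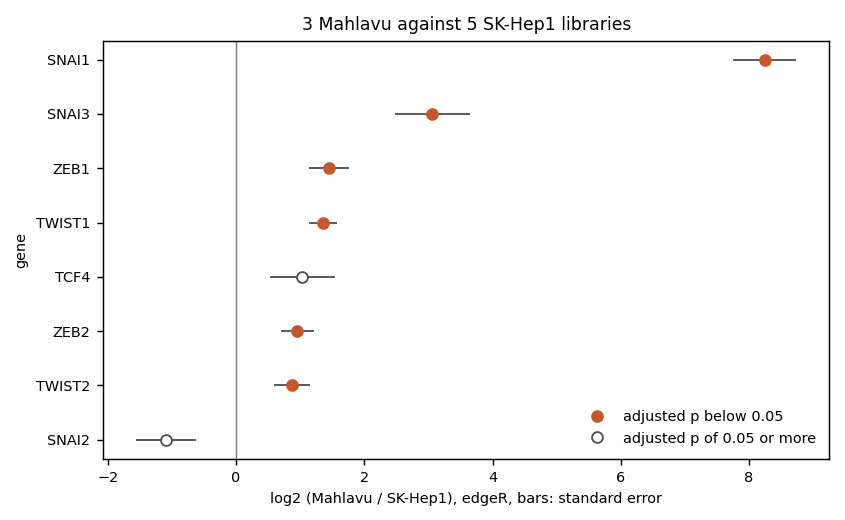
Difference between the 3 Mahlavu and 5 SK-Hep1 libraries in log2 units (horizontal axis) for the 8 factors that passed the filter (vertical axis), from edgeR, with bars for the standard error. Filled points have an adjusted p below 0.05. SNAI1 stands farthest out at 8.25 and SNAI2 is the 1 factor on the negative side, at -1.10.

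In SK-Hep1 the study asked what PSPC1, its Y523F mutant and PTK6 do, and SNAI2 was the EMT factor that differed most from mock in the libraries with unmutated PSPC1. Fold changes are differences of log2 of quantile-normalized FPKM + 1 between 2 libraries, a scale that understates changes of low genes, and a gene was compared where its mean over the pair reached 1 FPKM. On this scale SNAI2 differed from mock by -1.80 in the PSPC1 library and by -1.57 in PSPC1/PTK6, but by -0.14 in PSPC1-Y523F and -0.15 in PSPC1-Y523F/PTK6. The reads behind these values were 465 in mock, 94, 184, 381 and 415. As ratios of deposited FPKM to mock with exact 95% counting intervals, SNAI2 was at 0.217 (0.172 to 0.271) with PSPC1, 0.359 (0.301 to 0.427) with PSPC1/PTK6, 0.842 (0.734 to 0.966) with PSPC1-Y523F and 0.797 (0.696 to 0.912) with PSPC1-Y523F/PTK6. The 2 libraries with unmutated PSPC1 were thus the low ones, and the 2 with the mutant lay close below mock. These 4 comparisons share the mock library, so they are not independent of it.

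On the quantile-normalized scale with 1 added, SNAI2 was the only member at least 2-fold lower than mock in any SK-Hep1 transfectant. ZEB1 with PSPC1-Y523F also passed 2-fold with 0.1 added, with FPKM as deposited or scaled to the same sum, and with TMM-scaled reads. Of 5 members tested SNAI2 was the 1 called lower with PSPC1, where 2.19% of all genes were at least 2-fold lower. It was also the 1 with PSPC1/PTK6, where 3.32% were. With PSPC1-Y523F and PSPC1-Y523F/PTK6 no member was at least 2-fold lower, against 2.46% and 1.59% of genes. No member was at least 2-fold higher with PSPC1, PSPC1/PTK6 or PSPC1-Y523F, against 3.38%, 5.09% and 2.83% of genes. With PSPC1-Y523F/PTK6, TCF4 was the 1 of 6 tested that was, against 3.44% of genes. The median over tested members was 0.11, 0.31, -0.14 and 0.40 in the 4 comparisons in the order of the constructs given above, against -0.03, -0.04, -0.01 and -0.04 over all genes.

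The Twist and TCF4 genes lay at or above mock. TWIST1 differed by 0.86 with PSPC1, 0.31 with PSPC1/PTK6, 0.50 with PSPC1-Y523F and 0.41 with PSPC1-Y523F/PTK6, so it was above mock in all 4 without reaching 2-fold. TWIST2 differed by 0.12, 0.34, 0.11 and 0.47 in the same order. TCF4, at 22 reads in mock and 119 in PSPC1-Y523F/PTK6, differed by 1.26 there, and its ratio of deposited FPKM was 4.83 (95% counting interval 3.05 to 8.0). Its mean was under 1 FPKM in the other 3 comparisons, with ratios of 2.10 (1.23 to 3.68), 1.73 (1.01 to 3.05) and 1.54 (0.872 to 2.78).

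Among the transfectants, ZEB1 was lowest in those without added PTK6. It differed from mock by -0.68 with PSPC1, -0.34 with PSPC1/PTK6, -0.90 with PSPC1-Y523F and -0.16 with PSPC1-Y523F/PTK6. With PSPC1-Y523F its ratio of deposited FPKM was 0.417 (0.342 to 0.506), and its difference was -1.03 on the log2 scale of FPKM as deposited. ZEB2 differed from mock by 0.11, 0.37, -0.32 and 0.38 in the same order, and no library was 2-fold from mock.

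**Figure D3:**
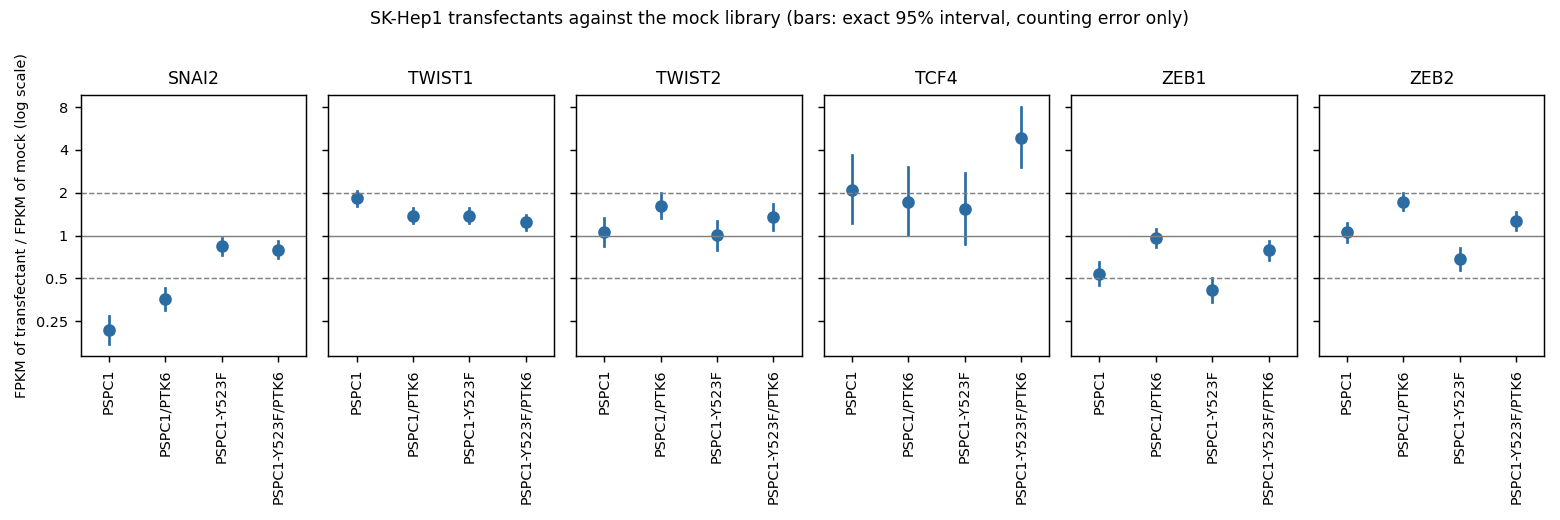
Ratio of deposited FPKM in each SK-Hep1 transfectant to the mock library (vertical axis, log scale, dashed lines at 2-fold) for the 6 factors with at least 1 FPKM in a transfectant, with bars for the exact 95% interval of counting error. SNAI2 lies at 0.217 and 0.359 with PSPC1 and PSPC1/PTK6 and near 0.8 with the Y523F forms, and TCF4 lies at 4.83 with PSPC1-Y523F/PTK6.

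The mutant was also set directly against PSPC1, which does not use the mock library. PSPC1 itself was at 7.01 FPKM in the PSPC1 library and 2.28 FPKM in the PSPC1-Y523F library. The mutation and the PSPC1 level therefore cannot be told apart in this pair. SNAI2 was higher with PSPC1-Y523F than with PSPC1 by 1.66 on the log2 scale, with a ratio of deposited FPKM of 3.89 (95% counting interval 3.09 to 4.92). It was the 1 of 6 tested members at least 2-fold higher, where 1.88% of genes were, and no member was 2-fold lower, where 2.37% of genes were. TWIST1 differed by -0.36, TWIST2 by -0.02, ZEB1 by -0.22, ZEB2 by -0.43 and TCF4 by -0.17.

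PTK6 was added on 2 backgrounds, and ZEB1 and ZEB2 were higher with it on each. ZEB1 differed by 0.34 when PTK6 was added to PSPC1 and by 0.74 when it was added to PSPC1-Y523F, and ZEB2 by 0.26 and 0.70. As ratios of deposited FPKM, ZEB1 was at 1.79 (95% counting interval 1.49 to 2.14) and 1.90 (1.56 to 2.32), and ZEB2 at 1.64 (1.44 to 1.89) and 1.83 (1.56 to 2.16). On the PSPC1 background the choice of scale matters. With FPKM as deposited and 1 added ZEB1 differed by 0.70 there, and the median of all genes was shifted by 0.19 log2 units. TWIST1 differed by -0.55 and -0.09, TWIST2 by 0.21 and 0.37, and SNAI2 by 0.22 and -0.01. TCF4 was at least 2-fold higher with PTK6 on the mutant background, by 1.01 on the log2 scale with a ratio of 3.13 (2.11 to 4.76), where 3.78% of genes were at least 2-fold higher and 2.2% lower. On the PSPC1 background none of 5 tested members was 2-fold from its partner, against 3.09% of genes higher and 1.87% lower.

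Over both backgrounds, edgeR's quasi-likelihood test with the PSPC1 form as a covariate called 36 of 14023 genes higher with PTK6 (0.257%) and 12 lower (0.0856%), and none of the 6 members tested. ZEB1 was at 0.80 (SE 0.259, edgeR adjusted p = 0.311) and ZEB2 at 0.72 (SE 0.229, edgeR adjusted p = 0.305). They were among 1677 genes with an unadjusted p below 0.05. TWIST2 was at 0.45, TCF4 at 0.63, SNAI2 at 0.24 and TWIST1 at -0.36. DESeq2 called 198 genes higher and 79 lower, and no member among them. The fit has 1 residual degree of freedom and 4 libraries.

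In Mahlavu the study compared PSPC1-CT131, a fragment of PSPC1 that it uses to interfere with the protein, and its nuclear localization mutant. SNAI1 was higher than in mock with each construct. It differed from mock by 0.94 with PSPC1-CT131 and 1.15 with Mut-NLS-CT131, with ratios of deposited FPKM of 1.51 (95% counting interval 1.31 to 1.76) and 2.08 (1.81 to 2.40). TWIST2 was higher with PSPC1-CT131 alone, by 1.06 against mock and by 1.09 against Mut-NLS-CT131, and the ratios were 1.68 (1.46 to 1.92) and 1.86 (1.61 to 2.17). Against mock, Mut-NLS-CT131 left TWIST2 at -0.03. ZEB1 differed by -0.14 with PSPC1-CT131 and by 0.72 with Mut-NLS-CT131, so that it was lower in PSPC1-CT131 than in Mut-NLS-CT131 by 0.86 on the log2 scale, with a ratio of 0.463 (0.417 to 0.514). ZEB2 differed by 0.12 and 0.44 from mock, TWIST1 by -0.03 and 0.33, and SNAI2 by 0.45 and 0.12. TCF4 differed by -0.52 and -0.14. The scale matters for PSPC1-CT131 against mock. With FPKM as deposited and 1 added, SNAI2 differed by 0.05 and TCF4 by -0.90 there, and the median of all genes was -0.23. PRRX1, below 1 FPKM on average, had 35 reads with Mut-NLS-CT131 against 3 with PSPC1-CT131, a ratio of 12.1 (3.82 to 61.5).

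Few of these Mahlavu differences reached 2-fold. Of 7 tested members, TWIST2 was at least 2-fold higher with PSPC1-CT131 against mock, where 3.17% of genes were higher and 3.16% lower, and SNAI1 with Mut-NLS-CT131 against mock, where 3.16% were higher and 3.26% lower. Between PSPC1-CT131 and Mut-NLS-CT131, TWIST2 was again the 1 that was higher, where 4.23% of genes were higher and 4.59% lower. Each sits near the threshold. With FPKM as deposited SNAI1 differed by 0.97 and TWIST2 by 0.70 and 0.84, while ZEB1, at -1.05 between PSPC1-CT131 and Mut-NLS-CT131, passed it.

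With HGF the expressed members of Huh-7 were close to their untreated levels, as were nearly all genes. SNAI1 differed by 0.03, SNAI3 by -0.04, ZEB1 by 0.21 and TCF4 by -0.11, and none of these 4 was 2-fold different, against 0.428% of genes higher and 0.393% lower. SNAI2, with 5 and 11 reads, stayed under the filter. TWIST1 and TWIST2 were at 0 reads before and after HGF.

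**Figure D4:**
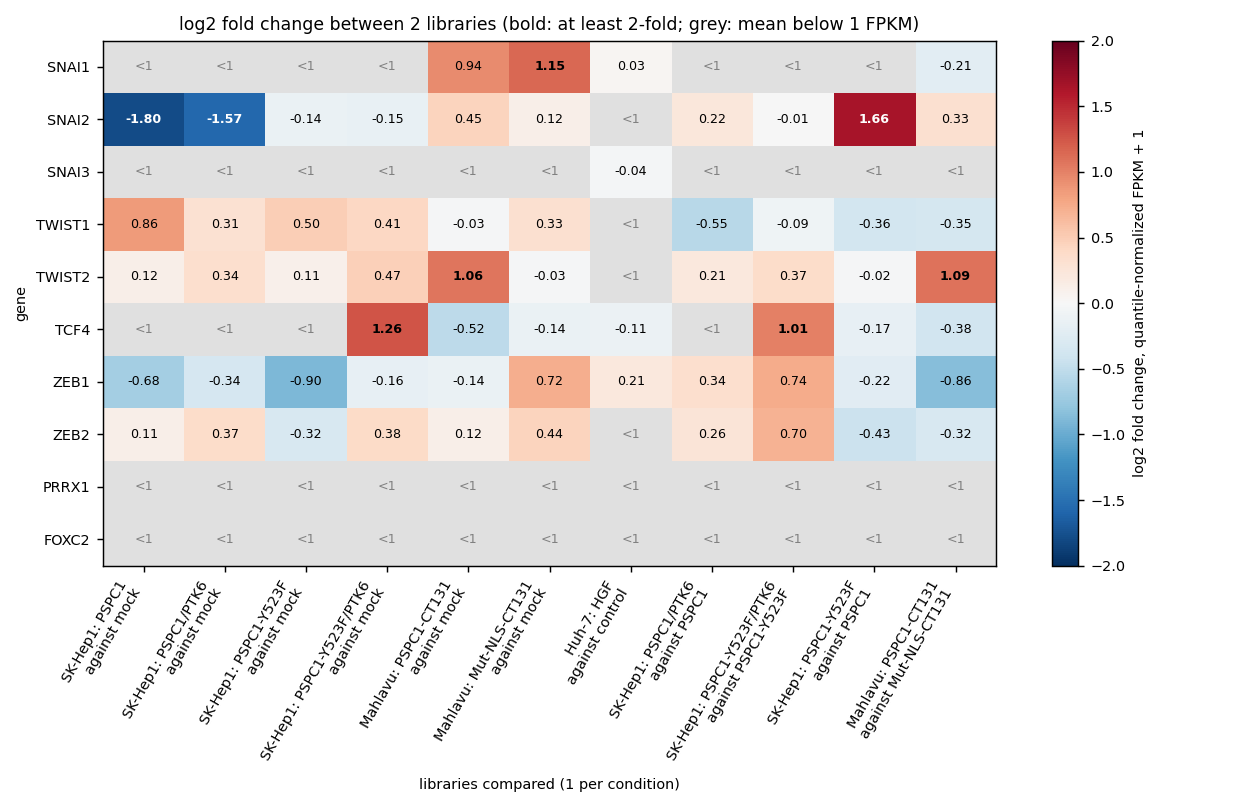
Log2 fold change of quantile-normalized FPKM + 1 (colour, and printed in each cell) for each factor (vertical axis) in each pair of libraries compared (horizontal axis), with changes of at least 2-fold in bold and pairs with a mean below 1 FPKM in grey. SNAI2 holds the largest values in SK-Hep1 on this scale, at -1.80 and -1.57 against mock and 1.66 for PSPC1-Y523F against PSPC1.

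The partners and inhibitors of the helix-loop-helix factors were followed as a list of the E proteins TCF3 and TCF12 and the inhibitors ID1 to ID4. In Mahlavu, 3 of 5 tested were at least 2-fold lower with Mut-NLS-CT131 than with mock, against 3.26% of all genes. ID1 was at 91.5, 83.4 and 16.0 FPKM in mock, PSPC1-CT131 and Mut-NLS-CT131, ID3 at 109.1, 92.2 and 15.2, and ID2 at 25.5, 16.2 and 7.41. Their log2 differences against mock were -2.60, -2.95 and -1.67 with Mut-NLS-CT131, while none of the 5 was 2-fold from mock with PSPC1-CT131. In SK-Hep1 ID2 was at 2.87 FPKM in mock, 0.659 with PSPC1, 1.23 with PSPC1/PTK6, 3.71 with PSPC1-Y523F and 1.10 with PSPC1-Y523F/PTK6, low in the same 2 libraries as SNAI2 and also with PSPC1-Y523F/PTK6. In the test of lines ID2 was higher in Mahlavu by 2.80 (edgeR adjusted p = 0.001335), and ID1 and ID3 were higher in SK-Hep1, at -1.31 (edgeR adjusted p = 0.0349) and -1.50 (edgeR adjusted p = 0.0251). TCF3, at 105.9 to 169.2 FPKM in SK-Hep1 and 140.4 to 151.0 FPKM in Mahlavu, was far above TCF4 in every library.

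Co-repressors that Snail and ZEB factors recruit were expressed in every SK-Hep1 and Mahlavu library. Of 12, none was higher in Mahlavu and 3 in SK-Hep1 by the edgeR test of lines, against 27.8% and 23.9% of all genes. The 3 were the deacetylase HDAC1 at -1.45, the scaffold SIN3A at -0.84 and the arginine methyltransferase PRMT5 at -2.0. Against mock, EZH2, the methyltransferase of Polycomb complex 2, was the 1 of 12 at least 2-fold lower with PSPC1/PTK6 (-1.28), against 3.32% of all genes. HDAC1 was the 1 that was lower with Mut-NLS-CT131 (-1.07), against 3.26%. Over the comparisons with mock, 1.59% to 5.09% of all genes passed 2-fold per direction in SK-Hep1 and 3.16% to 3.26% in Mahlavu. Counts this small lie near those shares. Of 13 kinases, ubiquitin ligase subunits and deubiquitinases that set the lifetime of Snail proteins, 2 were higher in Mahlavu and 4 in SK-Hep1. The shares of all genes in the test of lines were 27.8% and 23.9%. The Hippo kinase LATS2 was at -2.61 and the F-box protein FBXL5 at 1.07 in that test. None of the 13 was past 2-fold in any comparison with mock, which also lies near the shares of all genes given for those comparisons. FBXL14, an F-box protein that targets Snail and Twist factors, was lower with PTK6 on the mutant background by 1.2 on the log2 scale. It was the 1 of 13 at least 2-fold lower there, against 2.2% of all genes.

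Other transcription factors tied to EMT also differed between the lines. Of 15 listed, 12 were tested and 4 were higher in Mahlavu and 6 in SK-Hep1 by edgeR, against 27.8% and 23.9% of all genes. PRRX2, the paralog of PRRX1, was at 7.99, 17.7, 27.6, 10.4 and 20.01 FPKM in the SK-Hep1 libraries and at 0 to 0.077 FPKM in Mahlavu, the reverse of PRRX1. Its line difference was -9.40, and that of LEF1 of the Wnt pathway, with 0 to 2 reads in SK-Hep1, was 5.43. Each passed the filter only through the line where it is high, so its call is partly set by the filter. HMGA2, a chromatin protein and inducer of SNAI1 and TWIST1, was lower than mock in all 4 SK-Hep1 transfectants, at 79.3 FPKM in mock and 16.0, 33.7, 27.4 and 30.7 FPKM in the others in the order above. Its log2 differences from mock were -2.10, -1.28, -1.40 and -1.19. These 4 differences share the mock library, so they are not independent of each other. Of 14 factors that oppose EMT, such as GRHL2, OVOL1 and ESRP1, KLF4 and KLF5 alone reached 1 FPKM in every SK-Hep1 and every Mahlavu library, while 10 did in Huh-7. Of 6 tested between lines, 2 were higher in Mahlavu and 1, FOXA1, in SK-Hep1, against 27.8% and 23.9% of all genes. FOXA1, with 0 to 2 reads in the Mahlavu libraries, passed the filter only through SK-Hep1, so its call is partly set by it. When PTK6 was added to PSPC1, 3 of 4 tested were at least 2-fold higher, against 3.09% of all genes. KLF4 was higher by 1.21, ELF3 by 1.2 and KLF5 by 1.08. On the mutant background 2 of 4 tested were at least 2-fold higher, against 3.78% of all genes. ELF3 was higher by 1.89 and KLF5 by 1.70 there, while KLF4 was at -0.72, the opposite direction. In the edgeR test over both backgrounds KLF5 was at 1.74 (adjusted p = 0.0796).

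The epithelial genes that these factors are known to repress were mixed in each line. CDH1 had 0 to 4 reads in the SK-Hep1 libraries, 17 to 21 in the Mahlavu libraries, and 105.7 and 130.2 FPKM in Huh-7. Of 30 epithelial targets, 14 were at 1 FPKM or more in every SK-Hep1 library, 15 in every Mahlavu library and 26 in both Huh-7 libraries that also held SNAI1 and ZEB1. Of 22 tested between lines, 7 were higher in Mahlavu and 9 in SK-Hep1 by edgeR, against 27.8% and 23.9% of all genes. CDH1 was at 3.14 from few reads in both lines, LAMA3 of laminin at 6.33, MARVELD2 of tricellular junctions at 5.91 and the keratin KRT19 at -10.07. CDH1, MARVELD2 and KRT19 passed the filter only through the line where they are high, so their calls are partly set by it. Against SK-Hep1 mock, 4 of 16 tested targets were 2-fold higher and none 2-fold lower with PSPC1 and likewise with PSPC1/PTK6, against 3.38% and 5.09% of all genes higher and 2.19% and 3.32% lower. The median over the tested targets was 0.30 and -0.001, against -0.03 and -0.04 over all genes. JUP, a plakoglobin shared by desmosomes and adherens junctions, was at 40.3 FPKM in mock, 96.7 with PSPC1, 152.0 with PSPC1/PTK6, 34.5 with PSPC1-Y523F and 55.1 with PSPC1-Y523F/PTK6. The tight-junction protein TJP3 was at 2.53, 9.05, 11.3, 0.940 and 2.26 FPKM in the same order. With PSPC1-Y523F 1 of 15 was 2-fold higher and 2 lower, and with PSPC1-Y523F/PTK6 1 of 15 was higher and 1 lower. Of all genes, 2.83% and 3.44% were higher in these comparisons, and 2.46% and 1.59% lower. In Mahlavu the counts were 2 higher and 1 lower of 16 with PSPC1-CT131, and 1 higher and 4 lower of 17 with Mut-NLS-CT131, the keratins KRT8 (-1.55) and KRT18 (-1.49) among them. Of all genes, 3.17% and 3.16% were higher with these constructs, and 3.16% and 3.26% lower. CLDN1 was the 1 of 17 tested targets called with PTK6, at 2.15 (edgeR adjusted p = 0.0367), against 0.257% of all genes called higher.

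Mesenchymal genes were as mixed. CDH2, which encodes N-cadherin, had 0 to 4 reads in the SK-Hep1 libraries and was at 20.8 to 27.3 FPKM in Mahlavu and at 20.01 and 23.2 FPKM in Huh-7, so that like SNAI1 it was nearly absent from SK-Hep1 alone. VIM, which encodes vimentin, was at 458 to 721 FPKM in SK-Hep1, at 279 to 532 FPKM in Mahlavu and at 58.9 and 61.6 FPKM in Huh-7. Of 25 tested between lines by edgeR, 4 were higher in Mahlavu and 11 in SK-Hep1, against 27.8% and 23.9% of all genes. The collagen COL3A1 was at -9.35 and VIM at -0.72 (edgeR adjusted p = 0.0468). CDH2 was at 8.52 and the gelatinase MMP2 at 11.14, but both passed the filter only through Mahlavu, so their calls are partly set by it. Fibronectin, FN1, was lower than SK-Hep1 mock in all 4 transfectants by -2.20, -3.11, -2.0 and -1.07, while the collagen COL5A2 was higher by 2.52, 2.48, 2.07 and 1.43. For each gene the 4 differences share the mock library, so they are not independent of each other. Counts of at least 2-fold against mock were 2 higher and 2 lower of 21 with PSPC1, 7 and 2 of 22 with PSPC1/PTK6, 3 and 2 of 22 with PSPC1-Y523F, and 2 and 3 of 21 with PSPC1-Y523F/PTK6. Of all genes, 3.38%, 5.09%, 2.83% and 3.44% were higher in the same order, and 2.19%, 3.32%, 2.46% and 1.59% were lower. In Mahlavu the counts were 5 and 5 of 23 with PSPC1-CT131 and 3 and 4 of 23 with Mut-NLS-CT131. Of all genes, 3.17% and 3.16% were higher with these constructs, and 3.16% and 3.26% lower. The matrix protein TNC was at 2.67 and 2.73 and the integrin ITGA5 at 2.07 and 1.74. TNC was lower with PTK6 in the edgeR test, by 2.09 on the log2 scale (adjusted p = 0.0269). It was the 1 of 24 tested that was called, against 0.0856% of all genes called lower.

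Markers of other cell types were followed as further checks of the lines. By the edgeR test of lines, SERPINA1 of the hepatocyte list was higher in SK-Hep1, and of 2 endothelial markers tested KDR, with 0 reads in SK-Hep1, was higher in Mahlavu and VWF in SK-Hep1, all under 1 FPKM but SERPINA1. Of 6 fibroblast markers tested, 1 was higher in Mahlavu and 3 in SK-Hep1, against 27.8% and 23.9% of all genes. Of 6 immune markers, CD14 alone reached 1 FPKM in every library, and of the 2 tested between lines CD79A was higher in SK-Hep1. KDR, VWF and CD79A passed the filter only through the line where they are high, so their calls are partly set by it. The part of all these markers in the differences between lines was not tested.

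ZEB1-AS1 and SNAI3-AS1, the antisense neighbours with enough reads to test, were higher in Mahlavu like their partners. ZEB1-AS1, which starts beside ZEB1 on the other strand, had 9, 17, 59, 16 and 20 reads in the SK-Hep1 libraries, 178, 120 and 238 in Mahlavu mock, PSPC1-CT131 and Mut-NLS-CT131, and 76 and 55 in Huh-7. It was higher in Mahlavu by 2.80 (edgeR adjusted p = 0.000634), and within Mahlavu its order of libraries was that of ZEB1. It was at least 2-fold higher than mock with PSPC1/PTK6, by 1.17, where ZEB1 was not. SNAI3-AS1 had 21 to 33 reads in SK-Hep1, 125 to 252 in Mahlavu and 133 and 189 in Huh-7, and was higher in Mahlavu by 2.43 (edgeR adjusted p = 6.663e-05). ZEB2-AS1 had at most 1 read in any library, and FOXC2-AS1 and TCF4-AS1 had 0 reads in the 8 SK-Hep1 and Mahlavu libraries. The strand of counting is not given in the sources used here, so reads of overlapping sense and antisense genes cannot be told apart.

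The genes whose pattern was most like that of each member were sought among 12902 genes whose mean reached 1 FPKM, by Pearson correlation over the 8 SK-Hep1 and Mahlavu libraries. These libraries fall into 2 lines, which sets much of each correlation, and the values describe these libraries only. PDLIM3 and C2orf72 were nearest to SNAI1 (r = 0.999 for each), EFR3B (0.968) and NOC4L (0.964) to SNAI2, and MFSD6 (0.985) and HDGF (0.982) to TWIST1. CYTH4 (0.959) and TNIP2 (0.955) were nearest to TWIST2, and HOXD10 (0.899) and SH3PXD2A (0.893) to TCF4. YIPF5 (0.985) and TBC1D19 (0.979) were nearest to ZEB1, and IFT27 (0.983) and ARL6IP5 (0.979) to ZEB2.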

How the data were processed

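The authors deposited unnormalized counts of reads alongside FPKM for 8 libraries (SK-Hep1 and Mahlavu), and FPKM alone for the 2 Huh-7 libraries. The submitters' processing notes name TopHat2 2.0, HTSeq 0.6.1 and edgeR, and the roles and settings are not given in the sources used here. The paper's methods name rRNA depletion and the sample labels poly-A selection, so which was used is unsettled. Reads of Huh-7 genes were recovered as whole multiples of 1 read, within a tolerance of 0.02. FPKM were quantile normalized over the 8 SK-Hep1 and Mahlavu libraries and separately over the 2 Huh-7 libraries, so levels across these tables were set side by side without a test. Differences between 2 libraries were taken on log2(FPKM + 1), with a mean of at least 1 FPKM and a threshold of 2-fold. Counting intervals were exact binomial for ratios and Wilson for levels (95%), and the floor was 3 reads. Count tests used edgeR 4.0.16 (quasi-likelihood, TMM, filterByExpr, adjusted p below 0.05) in R 4.3.3, with DESeq2 1.42.0 as an alternative. The rest was done with scipy 1.17.1, pandas 2.3.3, numpy 2.4.6 and matplotlib 3.10.9 under Python 3.11.15.

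The calculations were tested on simulated data. The members, the gene lists and the tests were chosen with earlier results of these data known. All members are named, and of each list at most the 3 genes with the largest difference in a comparison, the antisense genes, CDH1, CDH2 and VIM. CRB3, AP1M2 and DSP were chosen as examples among the epithelial targets with 2 or more E-boxes in a promoter. CLDN7, JUP, MUC1 and PATJ also had that many. GRHL2, OVOL1, ESRP1, TCF3, TCF12, ID4, KDR, VWF, CD14, CD79A and SERPINA1 are named as examples or exceptions. Alternatives were another pseudocount (0.1 or 5), other scalings, other filters, DESeq2, and leaving out each library in the test of lines.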

Additional observations from a re-analysis of the deposited data

Results flagged for a closer look

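SNAI2 is listed here because the 2 libraries with added PTK6 differed from their partners in opposite directions. It was at 0.224 on the log2 scale when PTK6 was added to PSPC1 (94 and 184 reads) and at -0.0115 when PTK6 was added to PSPC1-Y523F (381 and 415 reads). The second value is close to 0 and changes sign under some scalings. With 1 library per condition the difference between these directions was not tested.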

How the results depend on the processing

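Of the counts of members called, 103 of the values under alternatives stayed within 1.5 times the reported count and 21 did not. With 5 in place of 1 added before the log, no member was 2-fold higher than mock in SK-Hep1 (0 against 1) or Mahlavu (0 against 2), with PTK6 (0 against 1) or between PSPC1-CT131 and Mut-NLS-CT131 (0 against 1). With FPKM as deposited or scaled to the same sum, the counts higher were 0 for Mahlavu against mock, 0 for PTK6 added and 0 for PSPC1-CT131 against Mut-NLS-CT131, where 1 (ZEB1) was lower against 0. With TMM-scaled reads they were 1 for Mahlavu and 0 between its constructs, with quantile normalization within each line 0 for PTK6 added, and with a mean of at least 5 FPKM 0 for SK-Hep1 against mock and 0 for PTK6 added. Members higher in SK-Hep1 than in Mahlavu numbered 0 in the main test, 1 with DESeq2 (SNAI2, adjusted p = 0.0294), 2 without a filter (SNAI2, and FOXC2 at -5.19), and 0 to 1 when each library was left out. SNAI2 in PSPC1 and PSPC1/PTK6 was 2-fold below mock under each scaling, and ZEB1 joined it in PSPC1-Y523F with 0.1 added, FPKM as deposited or scaled to the same sum, and TMM-scaled reads. With 0.1 added TCF4 in PSPC1-Y523F/PTK6 was at 2.03. No value of a called member changed sign. Among small differences, SNAI2 with Mut-NLS-CT131 and with PTK6 on PSPC1-Y523F, TWIST1 and ZEB2 with PSPC1-CT131 and TWIST2 with Mut-NLS-CT131 did. The PTK6 test called 36 genes higher and 12 lower, against 198 and 79 with DESeq2, 64 and 19 with RLE factors and 566 and 200 without a filter. Over all genes, counts past 2-fold moved with the pseudocount, for PSPC1 against mock in SK-Hep1 from 419 higher and 272 lower to 627 and 452 with 0.1 added and 180 and 81 with 5 added. Without quantile normalization the median of all genes shifted by -0.23 for PSPC1-CT131 against mock, -0.13 against Mut-NLS-CT131, 0.15 for PSPC1/PTK6 and -0.13 for PSPC1-Y523F/PTK6 against mock. No paired analysis was possible because each condition has 1 library and the labels carry no replicate numbers, apart from the PTK6 test itself, which compares libraries within each PSPC1 form. Leaving out a library of the PTK6 test leaves no residual degrees of freedom. Depth limits FOXC2, PRRX1, and SNAI1 and SNAI3 in SK-Hep1, which rest on few reads. The cause of these changes was not tested.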
